A study of Mus musculus with 4 samples.

Results

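The genes described here encode parts of the apoptosome, the complex that starts caspase activation on the mitochondrial route of apoptosis, together with Diablo and other caspases. They are Apaf1, Cycs, Diablo and the caspases Casp1, Casp2, Casp6, Casp8 and Casp9. The 8 genes were chosen by name, and all 12 of their RefSeq transcript rows were taken and their FPKM summed per gene. They are 8 of 22401 named genes, and 7 of the 8 reached 1 FPKM in at least 1 library, as did 13013 genes in all. FPKM counts sequenced fragments per kilobase of transcript, scaled to the mapped fragments of the library, so levels of different genes can be set side by side.

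Mouse embryonic stem (ES) cells of mixed C57BL/6X129Sv strain, below passage 20, carried either p53+/+ or p53-/- as genotype. Each genotype was left untreated or exposed to Adriamycin (doxorubicin, which damages DNA by way of topoisomerase II) at 0.5 uM for 8 h. The untreated libraries are entered here at 0 h. Drug and time in culture therefore cannot be told apart in the responses below. All 4 cultures shared the same medium with serum and leukemia inhibitory factor, and each of the 4 groups is 1 library of polyadenylated RNA. Whether the p53-/- cells are 1 clone, and which exons they lack, is not given in the sources used here. Each group being 1 library, the differences below carry no test and no estimate of biological spread.

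When p53 or other signals open the outer mitochondrial membrane, cytochrome c leaves the intermembrane space and binds Apaf1, which assembles into a wheel that recruits and activates caspase-9. Caspase-9 then cleaves the executioner caspases, and Diablo (also called Smac) frees caspases from inhibitor of apoptosis (IAP) proteins such as Xiap. Caspase-8 serves death receptors, caspase-2 the PIDDosome, caspase-1 the inflammasome, and caspase-6 acts among the executioners. Caspases are made as inactive precursors, so their activity depends on later activation of the protein, which RNA levels do not measure. APAF1 is known as a direct transcriptional target of p53 in human and mouse cells.

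The members that form the apoptosome itself, Apaf1, Cycs and Casp9, are shown by the 250 bases before their start, taken from RefSeq on GRCm38.p6, because Apaf1 differed widely between the libraries and the other two did not. Capitals mark each GC box, GGGCGG or its reverse complement. The windows are chr10:91082744-91082993 on the minus strand for Apaf1, chr6:50566570-50566819 on the minus strand for Cycs and chr4:141793362-141793611 on the plus strand for Casp9.
Apaf1: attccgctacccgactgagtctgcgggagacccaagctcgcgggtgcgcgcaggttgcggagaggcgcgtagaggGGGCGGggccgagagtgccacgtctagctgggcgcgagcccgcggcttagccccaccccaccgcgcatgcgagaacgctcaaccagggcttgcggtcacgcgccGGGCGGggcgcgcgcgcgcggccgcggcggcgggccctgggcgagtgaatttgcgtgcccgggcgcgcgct
Cycs: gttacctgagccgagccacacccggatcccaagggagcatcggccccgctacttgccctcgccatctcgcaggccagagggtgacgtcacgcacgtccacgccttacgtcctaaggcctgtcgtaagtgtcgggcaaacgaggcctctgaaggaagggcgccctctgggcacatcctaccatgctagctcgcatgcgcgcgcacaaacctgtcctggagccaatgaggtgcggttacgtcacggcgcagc
Casp9: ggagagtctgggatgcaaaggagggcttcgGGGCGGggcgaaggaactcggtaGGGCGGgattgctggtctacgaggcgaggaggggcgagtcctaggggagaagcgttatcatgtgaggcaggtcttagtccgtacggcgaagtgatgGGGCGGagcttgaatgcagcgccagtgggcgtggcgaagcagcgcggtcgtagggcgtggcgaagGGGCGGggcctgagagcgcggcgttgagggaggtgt

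These windows held 2 GC boxes in Apaf1, 0 in Cycs and 4 in Casp9, and 32.7% of all 32851 windows of this length held at least 1. GC content was 75.6% in Apaf1, 64.0% in Cycs and 66.0% in Casp9, against a median of 52.4% over all windows. An exact match to the p53 half-site consensus, which reads the same on both strands, was found in none of the 8 members' windows and in 7.13% of all windows. The best match to the full p53 consensus of 20 bases, with up to 13 bases between its parts, had 4 mismatches in Apaf1 and 3 in Cycs and Casp9. Since 85.4% of all windows held a match with 4 or fewer mismatches and 39.6% one with 3 or fewer, these matches do not set the genes apart. No match says only that the letters are not in this window. The Casp8 window lies at the start of its shorter transcripts and not at that of NM_009812, which holds most of its FPKM.

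Apaf1, the scaffold of the apoptosome, was the member that differed most between the libraries. In p53+/+ cells it stood at 7.48 FPKM without Adriamycin and at 44.0 FPKM with it, and in p53-/- cells at 1.94 FPKM without and 2.57 FPKM with it. The treated p53+/+ library was thus far above the other three, and the p53-/- libraries lay below the untreated p53+/+ library. The gene spans chromosome 10, 90452056 to 90545488, in mm9, the build of the deposited tables. In bulk RNA, fewer cells that express a gene and less RNA per cell cannot be told apart.

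In p53+/+ cells Apaf1 was 5.87-fold higher after Adriamycin. The difference was 2.41 on the log2(FPKM + 1) scale, a scale that understates the change of low genes, and the bounds deposited with the FPKM values allow 2.21 to 2.62. Those bounds cover counting and assignment error only. By size of this difference Apaf1 ranked 192 from the top of 13013 genes. A gene is called higher or lower here at a difference of at least 1, and Apaf1 was the 1 member of 7 called higher, beside a background of 11.4% of all genes; 0 members were called lower, beside 2.78%.

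In p53-/- cells the same treatment gave an Apaf1 difference of 0.28, with a range of -0.11 to 0.67 from the bounds. Here 0 of 7 members were called higher and 0 lower, beside backgrounds of 0.377% and 0.461%. These backgrounds are 49 higher and 60 lower genes, and with a pseudocount of 0.1 FPKM they were 188 and 97. For Apaf1 the p53+/+ response minus the p53-/- response was 2.13 (1.54 to 2.73 from the bounds), which made it the 1 member past 1 in this comparison, beside 10.4% of all genes; 0 members were at -1 or less, beside 3.29%.

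Without treatment Apaf1 was already lower in p53-/- than in p53+/+ cells, at 0.259 times the level. The difference of -1.53 (-1.87 to -1.20 from the bounds) ranked 117 from the bottom, and with a pseudocount of 5 FPKM it was -0.85 and no longer called. Apaf1 was the 1 member called lower, beside 3.14% of all genes, and 0 were called higher, beside 3.50%. After treatment the p53-/- library held 0.0585 times the Apaf1 level of the p53+/+ library, a difference of -3.65 (-3.93 to -3.41 from the bounds). It ranked 52 from the bottom. Apaf1 was again the 1 member called lower, beside 13.0% of all genes, and 0 were called higher, beside 6.72%. These comparisons share libraries with the responses above, so they are not independent of them.

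**Figure D1:**
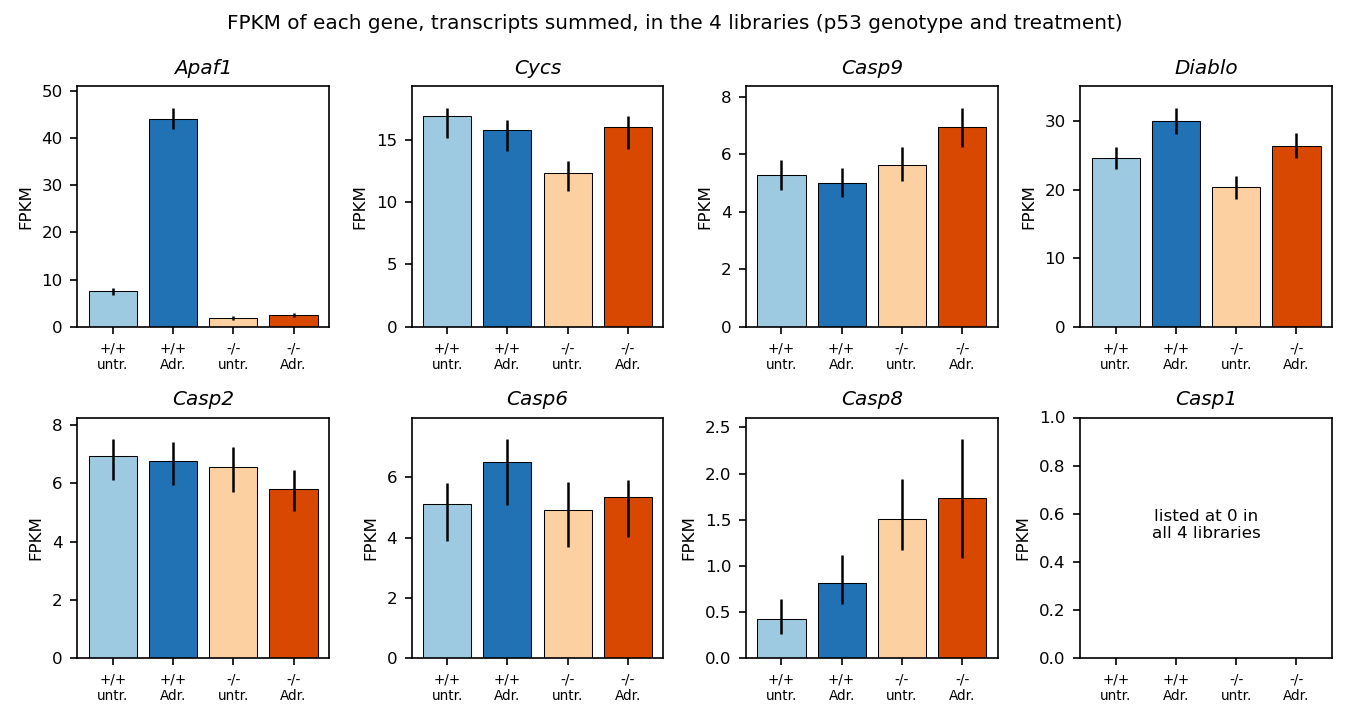
Bars give the FPKM of each gene with its transcripts summed, 1 bar per library (p53+/+ in blue, p53-/- in orange, darker after Adriamycin), and black lines run from the summed lower to the summed upper deposited bound. Each panel has its own axis from 0: Apaf1 reached 44.0 FPKM in treated p53+/+ cells against 7.48 FPKM or less elsewhere, while Cycs, Casp9, Diablo, Casp2 and Casp6 stayed within 1.47-fold between lowest and highest.

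Apaf1 was measured as 2 transcripts. NM_009684 stood at 3.52 FPKM (3.14 to 3.90, deposited bounds) and 24.3 FPKM (23.2 to 25.5) in p53+/+ cells, and at 0.753 FPKM (0.567 to 0.942) and 0.795 FPKM (0.595 to 0.990) in p53-/- cells. NM_001042558 stood at 3.97 FPKM (3.57 to 4.37) and 19.7 FPKM (18.6 to 20.8) in p53+/+ cells, and at 1.19 FPKM (0.966 to 1.41) and 1.78 FPKM (1.52 to 2.04) in p53-/- cells. Both were thus highest in treated p53+/+ cells. NM_009684 made up 47.0% of the gene in untreated and 55.2% in treated p53+/+ cells, and 38.8% and 30.9% in untreated and treated p53-/- cells. It was the more abundant transcript in the treated p53+/+ library and the less abundant one in the others.

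The deposited lengths of the 2 transcripts are 6514 and 6557 bases. In GENCODE M21, which has 27 exons for each, NM_001042558 has 108 more bases than NM_009684 in exon 1, 43 more in exon 2 and 7 fewer in exon 27, while their coding exons have the same coordinates. The deposited tables do not say which of these differences their models hold. The mean read depth was 19.1 and 129 reads per base for NM_009684 in untreated and treated p53+/+ cells but 3.10 and 3.52 in p53-/- cells.

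Ikbip, an IKBKB-interacting protein gene, lies head to head with Apaf1 on the other strand, with 295 bases between their ends in mm9. It was looked up as the neighbour of Apaf1 after that gene's values were seen. Its transcripts summed to 4.04 FPKM before and 21.01 FPKM after treatment in p53+/+ cells and to 2.47 and 4.29 FPKM in p53-/- cells. It was thus highest in the library in which Apaf1 was highest. The response was 2.13 in p53+/+ and 0.61 in p53-/- cells, and the genotypes differed by -0.54 untreated and -2.06 treated, so Ikbip was not called lower in untreated p53-/- cells as Apaf1 was. Both of its transcripts were higher after treatment, with NM_026166 at 3.17 and 16.5 FPKM and NM_027078 at 0.876 and 4.53 FPKM in p53+/+ cells.

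**Figure D2:**
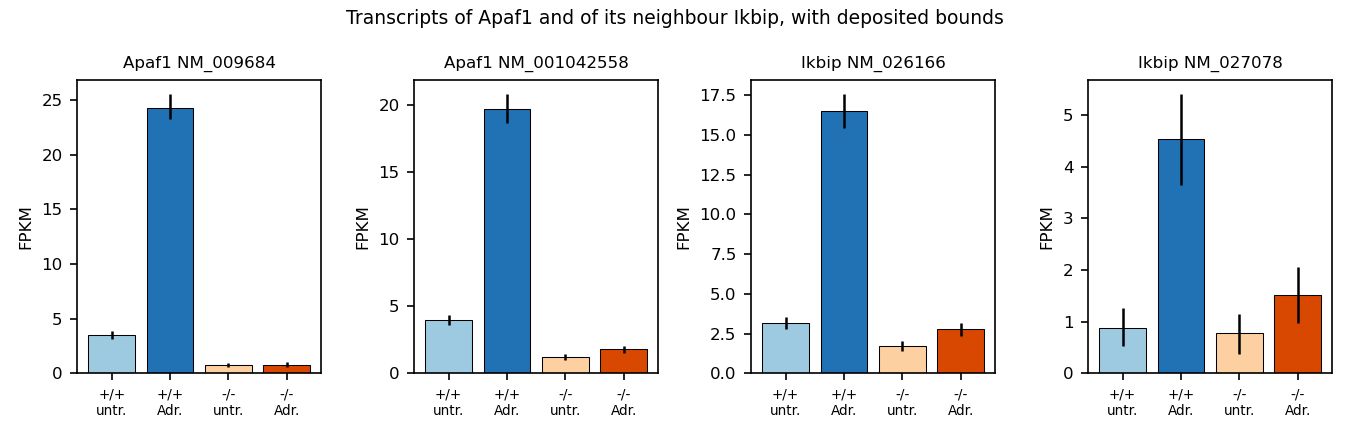
Bars give the FPKM of the 2 Apaf1 transcripts and the 2 Ikbip transcripts in the 4 libraries, with black lines for the deposited bounds. All 4 transcripts were highest in treated p53+/+ cells, and NM_009684 of Apaf1 stayed below 0.8 FPKM in both p53-/- libraries.

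The genes whose pattern over the 4 libraries was most like that of Apaf1 were Cpt1c, Phlda3 and Glp1r. Likeness was the distance between log2(FPKM + 1) profiles, each centred on its own mean, over the 4 libraries and 9133 genes of at least 5 FPKM in a library, without the members and genes that have only a model or clone name, and these distances were 0.18, 0.19 and 0.24. Cpt1c stood at 14.4 and 89.1 FPKM in p53+/+ cells and at 5.03 and 5.32 FPKM in p53-/- cells. Phlda3 stood at 22.0 and 108 FPKM in p53+/+ cells and at 5.96 and 7.06 FPKM in p53-/- cells. Ikbip was 286th by this measure, at a distance of 1.33.

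Cycs, which encodes cytochrome c, stood at 16.9 FPKM (15.1 to 17.6, deposited bounds) and 15.8 FPKM (14.1 to 16.6) in untreated and treated p53+/+ cells and at 12.4 FPKM (10.9 to 13.3) and 16.1 FPKM (14.3 to 16.9) in p53-/- cells. The untreated p53-/- library was the low one, and the bounds of the other three overlapped. Its response was -0.09 in p53+/+ cells (-0.30 to 0.12 from the bounds) and 0.35 in p53-/- cells (0.10 to 0.59). Mouse has processed copies of Cycs elsewhere in the genome, and how the deposited values treat reads that match several places is not given in the sources used here.

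Casp9, the initiator caspase that Apaf1 activates, stood at 5.26 and 5.004 FPKM in p53+/+ cells before and after treatment and at 5.64 and 6.92 FPKM in p53-/- cells. The treated p53-/- library was the highest. Its difference from treated p53+/+ cells was 0.40 (0.16 to 0.64 from the bounds), short of 1. NM_015733 held nearly all of the gene in every library. In mm9 the annotated span of Casp9 overlaps that of Cela2a, a gene on the other strand, by 1016 bases, and no use of strand is stated, so reads of the overlap cannot be told apart. Cela2a stood at 1.06 and 1.14 FPKM in p53+/+ and at 5.25 and 6.37 FPKM in p53-/- cells, and its part in the Casp9 values was not tested.

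The proportions of the apoptosome transcripts differed mainly in Apaf1. The ratio of Apaf1 to Casp9 FPKM was 1.42 in untreated and 8.78 in treated p53+/+ cells, and 0.344 and 0.371 in untreated and treated p53-/- cells. The ratio of Cycs to Casp9 FPKM was 3.21 and 3.15 in p53+/+ and 2.19 and 2.32 in p53-/- cells. In order of level, Cycs was above Apaf1 and Apaf1 above Casp9 in untreated p53+/+ cells. Apaf1 came first after treatment, and came last of these in both p53-/- libraries. An exome enrichment kit named in the labels and reads from Cycs copies could shift the level of a gene against another. Their part in this order was not tested.

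Diablo, the antagonist of IAP proteins, stood at 24.6 FPKM (23.0 to 26.3) and 30.0 FPKM (28.1 to 32.0) in untreated and treated p53+/+ cells and at 20.4 FPKM (18.7 to 22.1) and 26.4 FPKM (24.6 to 28.3) in p53-/- cells. In each genotype the treated library was the higher one. The response was 0.28 in p53+/+ (0.09 to 0.46 from the bounds) and 0.36 in p53-/- cells (0.15 to 0.57), far from 1. Of all genes, 35.5% had a response at least as high in p53+/+ and 8.05% in p53-/- cells. Diablo was the most abundant member except in treated p53+/+ cells, where Apaf1 exceeded it. Its annotated span overlaps that of B3gnt4 on the other strand by 553 bases in mm9. B3gnt4 stood at 0.327 and 1.77 FPKM in p53+/+ and at 0.275 and 0.394 FPKM in p53-/- cells, and its part in the Diablo values was not tested.

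Xiap, the IAP protein gene most closely tied to caspase-9 and the executioners, lies outside the members and was picked with its values known. It stood at 10.1 and 7.59 FPKM in p53+/+ and at 5.06 and 6.28 FPKM in p53-/- cells. The ratio of Diablo to Xiap FPKM was 2.45 in untreated p53+/+ cells and between 3.95 and 4.21 in the other three libraries.

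Casp2, the caspase of the PIDDosome, stood at 6.94 and 6.74 FPKM in p53+/+ cells before and after treatment and at 6.54 and 5.81 FPKM in p53-/- cells. Its bounds overlapped among all 4 libraries (5.05 to 7.50 FPKM from the lowest to the highest bound). Casp6, an executioner, stood at 5.11 and 6.52 FPKM in p53+/+ and at 4.91 and 5.36 FPKM in p53-/- cells, and its bounds also overlapped among all 4 libraries. The responses were -0.04 and -0.15 for Casp2 and 0.30 and 0.10 for Casp6, in p53+/+ and p53-/- cells.

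Casp8, the initiator caspase of death receptors, was low throughout and higher in p53-/- cells. It stood at 0.426 and 0.820 FPKM in p53+/+ cells before and after treatment and at 1.51 and 1.73 FPKM in p53-/- cells, 3.55-fold more in the untreated and 2.11-fold more in the treated comparison. Both p53-/- libraries were above both p53+/+ libraries. Only the p53-/- libraries reached 1 FPKM, so Casp8 passed the filter through the genotype in which it was higher. The differences were 0.82 (0.40 to 1.22 from the bounds) and 0.59 (-0.02 to 1.09), so neither was called, but with a pseudocount of 0.1 FPKM the untreated one was 1.62. NM_009812 made up nearly all of the gene in 3 libraries and 74.3% in treated p53-/- cells, where NM_001080126 was listed at 0.355 FPKM (0.138 to 0.553). The mean read depth of NM_009812 was between 2.37 and 6.19 reads per base.

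Fibroblast markers moved with genotype as well, and their part in the genotype differences of Casp8, Apaf1 and the other members was not tested. Of 10 listed markers 9 passed the filter, and all 9 were called higher in untreated p53-/- cells, beside 3.50% of all genes. Col1a2, Col3a1, Col6a1, Dcn, S100a4 and Postn were below 1 FPKM in both p53+/+ libraries. They passed the filter only through p53-/- cells, so this count was partly fixed by the filter. The summed level of the 10 listed markers was 8.78 and 14.9 FPKM in p53+/+ and 331 and 284 FPKM in p53-/- cells. Col3a1, Dcn, Lum and Postn were listed at 0 in both p53+/+ libraries. Col1a1 differed by 6.46 between untreated genotypes, Col1a2 by 5.92 and S100a4 by 4.65. Several marker genes had a transcript FPKM outside its own bounds, or with a deposited status other than OK, in at least 1 library. Nanog, Zfp42, Sox2, Col1a1, S100a4, Krt18 and Sparc were among them. The ES cell markers Pou5f1 and Sox2 stood between 658 and 948 FPKM and between 97.3 and 142 FPKM over the 4 libraries, and all 8 listed ES cell markers passed the filter. Their median difference was -0.91 in the p53+/+ response and -0.60 between untreated genotypes. Beside 2.78% of all genes, 2 of these markers were called lower in the p53+/+ response. These were Nanog, at 310.0 and 105 FPKM in p53+/+ and 194 and 166 FPKM in p53-/- cells, and Zfp42, at 289 and 84.7 FPKM and at 307 and 164 FPKM. The part of these differences in the members' values was not tested. In untreated p53-/- cells 4 of 7 primitive endoderm markers were lower and 0 higher, beside 3.14% and 3.50% of all genes. Dab2 stood at -2.21, Gata4 at -2.05 and Gata6 at -1.69, but Sparc went the other way, at 0.34. Gata4 and Gata6 passed the filter only through p53+/+ cells. Sparc had 151 FPKM in untreated p53+/+ and 192 FPKM in untreated p53-/- cells. The summed level of the 8 listed markers was 209 and 204 FPKM there. Of 6 trophoblast markers 3 were higher and 0 lower, with Krt18 at 1.54 and Krt8 at 1.30, while Eomes stood at -0.54 there and at -1.33 in the p53+/+ response. Trp53 itself stood at 216 and 165 FPKM in p53+/+ and at 78.6 and 76.5 FPKM in p53-/- cells, so its RNA was lower in p53-/- cells but present. Mean read depth times transcript length, summed over all deposited transcripts, came to between 3.34 and 4.32 gigabases a library.

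In mm9 the other members lie on chromosome 6 (Cycs, 50512562 to 50516473, and Casp2, 42215038 to 42232495), chromosome 4 (Casp9, 141349527 to 141371893), chromosome 5 (Diablo, 123961339 to 123974173), chromosome 3 (Casp6, 129604343 to 129617020), chromosome 1 (Casp8, 58852218 to 58904347) and chromosome 9 (Casp1, 5298517 to 5307281).

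Casp1, the inflammasome caspase that is typical of macrophages, was listed at 0 FPKM in all 4 libraries, with 0 for its upper bound, and gives no fold change. Its mean read depth was also listed at 0. The status deposited with the estimate was OK in all 4 libraries, so it was not marked as failed. Its neighbour Casp4 was listed at 0 in 3 libraries and at 0.142 FPKM in treated p53-/- cells. Of the 10 measured macrophage and leukocyte markers, 2 reached 1 FPKM in a library, and Ptprc was listed at 0 in 3 libraries and at 0.0194 FPKM in untreated p53-/- cells. The summed level of these markers was 46.1 and 76.2 FPKM in p53+/+ and 7.90 and 9.33 FPKM in p53-/- cells, of which Laptm5 alone made up 45.0, 73.0, 4.86 and 5.98 FPKM. The Laptm5 FPKM lay outside its own bounds, or had a deposited status other than OK, in at least 1 library.

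**Figure D3:**
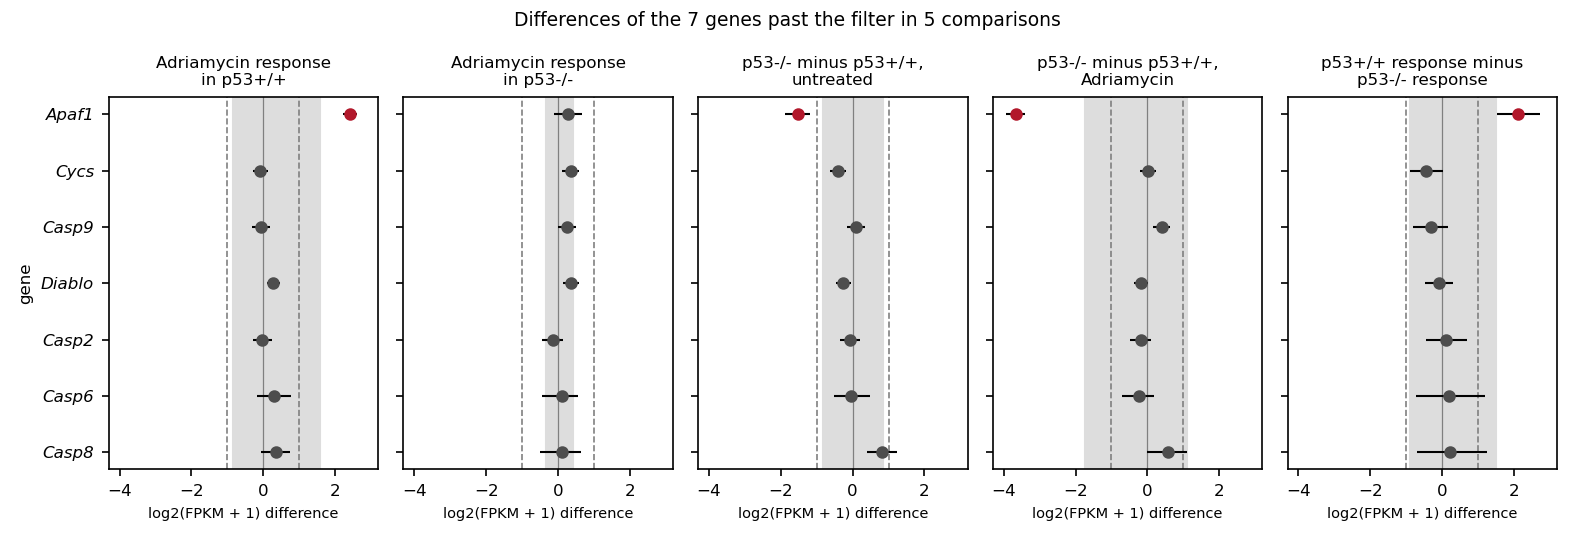
Points give the log2(FPKM + 1) difference of the 7 members past the filter in each of the 5 comparisons, red where it is at least 1 in size (dashed lines). Black lines give the range that the deposited bounds allow, and the grey band holds the 5th to 95th percentile of all 13013 genes. Apaf1 lies outside the band in all but the p53-/- response, at 2.41, 0.28, -1.53, -3.65 and 2.13.

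Read as a list, the members did not move together. The median difference of the 7 members was 0.28 in the p53+/+ response, beside 0.05 over all genes, and 0.26 in the p53-/- response, beside 0.07. It was -0.07 and -0.18 for p53-/- against p53+/+ cells, untreated and treated, beside -0.05 and -0.02, and 0.11 for the difference of responses, beside -0.01. The genes with the pattern nearest to that of Casp8, the member with the next widest range, were Ufsp2, Exosc6 and Polr1a (distances 0.06, 0.07 and 0.09), and those nearest to Diablo were Abraxas2, Zkscan3 and Ccdc134 (0.02, 0.03 and 0.04).

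Among the other caspases, 3 of 5 passed the filter. Beside 11.4% of all genes, 1 was called higher in the p53+/+ response. This was Casp14, known from keratinocyte differentiation, at 0.153 FPKM (0.0624 to 0.234) and 8.96 FPKM (7.65 to 9.75) in p53+/+ cells, and listed at 0 and at 0.0205 FPKM in p53-/- cells. Casp14 passed the filter only through the treated p53+/+ library.

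Of 9 IAP proteins and caspase inhibitors, all past the filter, 0 were called in either direction in any of the 5 comparisons. Over all genes between 0.377% and 13.0% were called per direction and comparison. The median response of these 9 genes was -0.36 in p53+/+ and 0.17 in p53-/- cells. Of 7 other intermembrane space proteins past the filter, Endog, which encodes endonuclease G, was the 1 called higher in the p53+/+ response, beside 11.4% of all genes. It stood at 7.87 FPKM (6.60 to 9.16) and 19.6 FPKM (17.5 to 21.7) in p53+/+ cells and at 19.1 and 21.1 FPKM in p53-/- cells. The untreated p53+/+ library was thus the low one, and the other three lay close together.

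Upstream of the mitochondrial step, 2 of 10 genes of outer membrane permeabilisation were called higher and 0 lower in the p53+/+ response, beside 11.4% and 2.78% of all genes, and 0 in either direction in the p53-/- response. Bbc3, which encodes Puma, stood at 11.0 and 43.5 FPKM in p53+/+ and at 2.19 and 2.51 FPKM in p53-/- cells, with the treated p53+/+ value above its upper bound of 42.9, and Pmaip1, which encodes Noxa, at 14.2 and 47.9 FPKM and at 4.002 and 6.12 FPKM. Both thus had the order of levels seen for Apaf1. Between treated genotypes 4 of the 10 were lower in p53-/- cells, beside 13.0% of all genes, among them the anti-apoptotic Mcl1 at 223 against 78.9 FPKM. The Mcl1 FPKM of a transcript lay outside its own bounds, or had a deposited status other than OK, in at least 1 library.

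Of 8 platforms and adaptors of caspase-8 and caspase-2, 3 were called higher and 0 lower in the p53+/+ response, beside 11.4% and 2.78% of all genes, and 0 were called in the p53-/- response. Fas, a death receptor that recruits caspase-8, summed to 0.253 and 11.2 FPKM in p53+/+ and to 0.0744 and 0.238 FPKM in p53-/- cells. Fas passed the filter only through the treated p53+/+ library. Pidd1, the scaffold of the PIDDosome that recruits caspase-2, stood at 9.61 and 54.0 FPKM in p53+/+ and at 5.82 and 6.73 FPKM in p53-/- cells. In treated p53+/+ cells the Pidd1 FPKM lay above its own upper bound of 53.5. Tnfrsf10b, another death receptor, stood at 9.07 and 19.7 FPKM in p53+/+ cells and at 6.88 and 8.38 FPKM in p53-/- cells. The caspases that these scaffolds recruit, Casp8 and Casp2, differed by 0.35 and -0.04 in the p53+/+ response.

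Of 11 substrates and effectors of the execution phase, 2 were called higher and 0 lower in the p53+/+ response, beside 11.4% and 2.78% of all genes, and 0 in either direction in p53-/- cells. Dffb, the caspase-activated DNase, stood at 4.30 and 42.6 FPKM in p53+/+ and at 4.11 and 4.56 FPKM in p53-/- cells, with the FPKM of treated p53+/+ cells above its own upper bound of 42.2. Panx1, a membrane channel opened by caspase cleavage, stood at 3.598 and 21.2 FPKM in p53+/+ and at 1.59 and 2.49 FPKM in p53-/- cells. Sptan1, a spectrin cleaved by caspases, stood at 49.8 and 29.1 FPKM in p53+/+ and at 65.9 and 66.1 FPKM in p53-/- cells, and was called higher in p53-/- cells after treatment, at 1.16. Of 5 inflammasome genes past the filter, 0 were called in any of the 5 comparisons, beside 0.377% to 13.0% of all genes per direction.

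**Figure D4:**
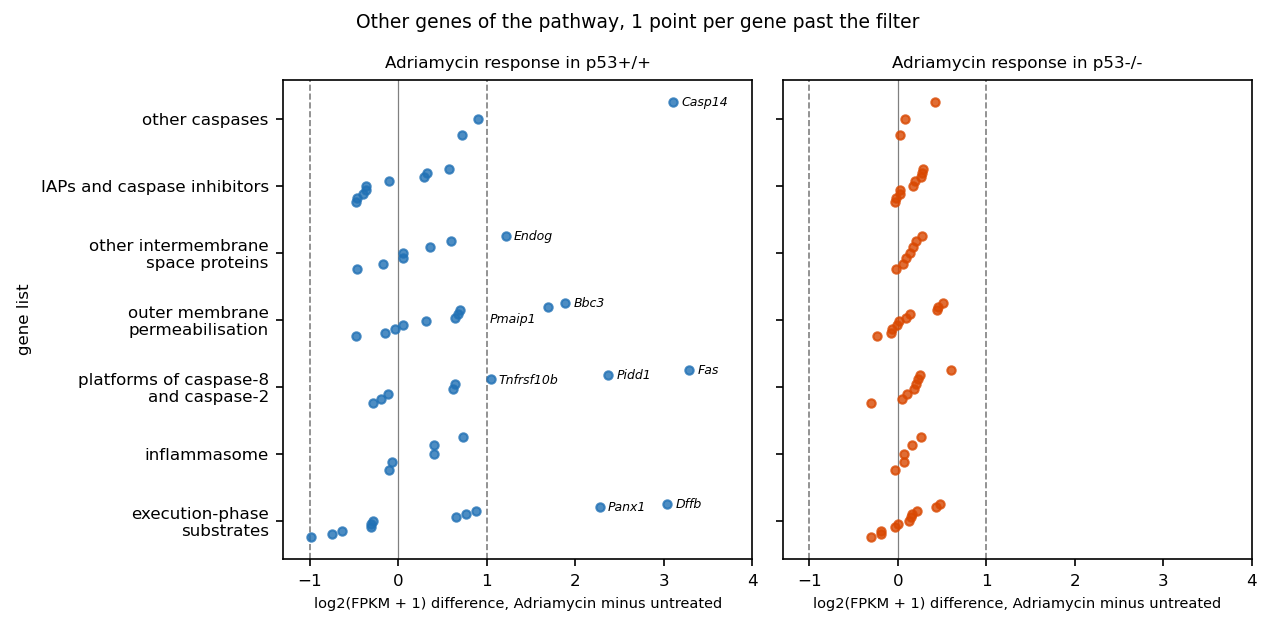
Each point is 1 gene past the filter from 7 lists of the pathway, placed by its log2(FPKM + 1) difference between treated and untreated cells, in p53+/+ cells on the left and p53-/- cells on the right, with dashed lines at 1 in either direction. The 9 genes named on the left are those at 1 or more in p53+/+ cells, from Tnfrsf10b at 1.04 to Fas at 3.28, and no gene of these lists is past 1 in p53-/- cells.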

How the data were processed

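Polyadenylated RNA, per the labels, of 4 mouse ES cell cultures was sequenced, 1 library each. For every library the authors deposited FPKM of RefSeq transcripts and bounds below and above each value. Coverage (mean read depth), transcript length and a status of each estimate were also deposited, per the file headers. CASAVA 1.8.1, TopHat2 2.0.5, TopHat, Cufflinks and mm9 are named, with no role, in the submitters' processing notes. An exome enrichment kit appears in the labels' protocols and could change which transcripts were captured. The annotation and its version are not given in the sources used here. Tests for counts were not used on FPKM.

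Of 30769 rows, 30407 were named, 30227 through RefSeq (GRCm38.p6) and 180 through GENCODE M21, and 362 were not. Short RNA genes (819 rows) were left out, and the rest were summed per gene into 22401 genes, of which 13013 reached 1 FPKM in at least 1 library. Differences are of log2(FPKM + 1), called at 1 or more in size. The range given from the bounds sets the summed lower bounds of one library against the summed upper bounds of the other. Positions in mm9 are those deposited, counted from 1. All 8 members were found in the promoter table.

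The members, lists, comparisons and threshold were chosen with earlier results of these data known. Members were all named, and from each other list the genes past the threshold, at most the 3 with the largest difference. Likeness gave the 3 nearest genes, named for the 3 members with the widest range. Other named genes were picked with values known. Some genes of the list of other caspases are not reported here by name. There were 10 alternatives, covering the pseudocount, the filter, the scaling, the transcripts used and the step. Calculations used numpy 2.4.6, pandas 2.3.3 and scipy 1.17.1 under Python 3.11.15, figures used matplotlib 3.10.9, and the calculations were tested on simulated data.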

Additional observations from a re-analysis of the deposited data

Results flagged for a closer look

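In 15 of the genes named here the response to Adriamycin had opposite signs in the genotypes. Some of these signs rest on a value near 0, such as 0.005 for Sptan1 and 0.018 for Pou5f1 in p53-/- cells. Eomes, by contrast, stood at -1.33 in p53+/+ and 0.23 in p53-/- cells. None of these differences was tested, since each group has 1 library. Among the members, the p53+/+ response minus the p53-/- response was -0.45 for Cycs (-0.88 to 0.02 from the deposited bounds) and -0.32 for Casp9 (-0.81 to 0.18), and both ranges include 0. Among other genes named it was -0.63 for Xiap, 0.74 for Mcl1, -0.76 for Sptan1, -0.41 for Pou5f1 and 0.97 for 5430402O13Rik, the gene head to head with Cycs. Among the cell type markers it was 2.17 for Col1a1, 0.26 for Col1a2, -0.68 for Dab2, -0.26 for Gata4, 0.32 for Gata6, -1.56 for Eomes, 0.19 for Krt18 and 0.53 for Krt8.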

How the results depend on the processing

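Apaf1 kept its direction in all 5 comparisons under the 9 alternatives that give its differences. These ran from 1.97 to 2.54 in the p53+/+ response and 0.03 to 0.39 in the p53-/- response. They were -1.89 to -0.85 and -4.04 to -2.69 between untreated and treated genotypes, and 1.85 to 2.45 for the difference of responses. The filters cannot change a member's value, nor can the use of rows within their own bounds, since every member row lay within them. A pseudocount cannot turn the sign of a difference between 2 libraries. Part of this agreement was thus fixed in advance. Of 310 differences of members under the alternatives 301 stayed within the range of the deposited bounds, 9 moved out of it, and 0 reversed a called value. Many of the 301 were fixed in advance, by the settings just named and, for genes of 1 transcript, by the main transcript setting. They are not a measure of how firm the values are. Between untreated genotypes 1 member was called, 2 with a pseudocount of 0.1 FPKM or a 1.5-fold step and 0 with a pseudocount of 5 FPKM. Between treated genotypes it was 1, and 2 with a 1.5-fold step. The extra call was Casp8 in each case, which passed the filter only through the p53-/- libraries.

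Counts over all genes moved more. The p53+/+ response had 1843 called genes, 2767 with a pseudocount of 0.1 FPKM, 780 with 5 FPKM and 4292 with a 1.5-fold step. The p53-/- response had 109, and 285, 51 and 400 under those settings, 166 with the main transcript only and 66 with rows within their own bounds. Untreated genotypes differed in 865, and 1739, 257 and 2771. Treated genotypes differed in 2571, 1130 with 5 FPKM and 5355 with the 1.5-fold step, and the difference of responses had 1785, 771 and 4381. Under quantile normalization the median over all genes was -0.10 in place of 0.05 in the p53+/+ response and 0.10 in place of -0.02 between treated genotypes. With it, higher genes were 65.3% in place of 80.4% of the called genes in the p53+/+ response, 44.3% in place of 34.0% between treated genotypes, and 65.4% in place of 76.0% for the difference of responses. With the 1.5-fold step higher genes were 65.8% and 59.0% in the p53+/+ response and the difference of responses. In the p53-/- response they were 45.0%, but 66.0% with a pseudocount of 0.1 FPKM and 56.1% with rows within their own bounds. There they were 51.75% with the 1.5-fold step and 32.5% with a filter of 5 FPKM. The balance of higher and lower genes thus turned under each of these settings but the filter. Between untreated genotypes it turned as well, from 52.7% to 49.1% with a pseudocount of 0.1 FPKM, 45.7% with a filter of 5 FPKM and 48.3% with the 1.5-fold step. No paired analysis was possible because each group has 1 library. The Casp8 values rest on 2.37 to 6.19 reads per base of NM_009812.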

Other observations

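Beside Apaf1 and Ikbip, Cycs has a neighbour head to head on the other strand, 5430402O13Rik, with 168 bases between their ends in mm9. That gene stood at 1.71 FPKM before and 2.75 FPKM after treatment in p53+/+ cells and at 0.576 and 0.118 FPKM in p53-/- cells, and its genotype difference was -0.78 untreated and -1.75 treated, where Cycs stood at -0.42 and 0.03. Neighbours of Apaf1 and Cycs thus differed in how far they went with the member.

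Over the whole table, 491 pairs of genes past the filter lie head to head with at most 500 bases between their ends in mm9, a limit set with the Apaf1 values known. Of the genes in these pairs 5.70% were called higher in the p53+/+ response, beside 11.4% of all genes. Of the 56 genes called higher, 12 (21.4%) had a partner that was also called higher, which makes 6 pairs, or 5 without Apaf1 and Ikbip. These are counts in 1 library per group, given as a description.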
